A study of Mus musculus with 2 samples.

Results

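The genes Mir375, Mir7-1 (also called Mir7a-1), Mir7-2 (Mir7a-2) and Mir7b encode miR-375 and miR-7, microRNAs known from hormone-secreting cells of the gut and the pancreatic islets. They were chosen by name, as the rows whose Ensembl identifiers map to these symbols in GENCODE, and all 4 had a row among the 1973 miRNA genes of each table. The intestine came from embryos of the mouse strain B6NCrl on embryonic day 16.5, pooled over males and females and healthy per the labels, and 2 microRNA-seq libraries of RNA shorter than 30 nucleotides were made. The labels call them biological replicates of 1 group, so there is no treated or mutant group and no contrast between conditions. The pool of replicate 2 held 41 embryos, and for replicate 1 the labels give no number. Whole intestine mixes epithelium, muscle, nerve, vessels and blood.

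A microRNA is cut from a hairpin transcript, and bases 2 to 8 of the mature strand, the seed, pair with the messenger RNAs that it represses. miR-375 is among the most abundant microRNAs of pancreatic islets, where it restrains insulin secretion and is needed for a normal endocrine cell mass, and in the gut it is known from enteroendocrine cells and other epithelial cells. miR-7 is conserved from flies to mammals and is known from islets, pituitary, hypothalamus and other neuroendocrine cells. In mammals it is made from several loci, and the circular RNA Cdr1as, rich in miR-7 sites, binds it.

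The mature sequences show which of these genes can be told apart by a read. RefSeq (GRCm38.p6, the assembly that mm10 names) held the hairpins of all 4 genes and 6 different mature sequences. Mir375 yields miR-375-3p and, from the 5′ arm, miR-375-5p. Each miR-7 gene yields a 5p strand, which is the main miR-7, and a 3p strand. Capitals mark the seed, bases 2 to 8.
miR-7a-5p, from both Mir7-1 and Mir7-2: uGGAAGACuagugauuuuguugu
miR-7b-5p, from Mir7b: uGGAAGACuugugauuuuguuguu
miR-7a-1-3p, from Mir7-1: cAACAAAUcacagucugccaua
miR-7a-2-3p, from Mir7-2: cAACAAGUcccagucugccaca
miR-7b-3p, from Mir7b: cAACAAGUcacagccagccuca
miR-375-5p, from Mir375: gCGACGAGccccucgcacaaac

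The 5p strands of the miR-7 genes share the seed GGAAGAC, which no other mature mouse sequence of the RefSeq table had. Counted from 1 at the 5′ end, with the base of miR-7a-5p first, miR-7b-5p differs by A10U over the 23 bases compared and is 1 base longer. The 3p strands differ more: miR-7a-1-3p against miR-7a-2-3p shows A7G, A10C and U21C, of which A7G lies in the seed. miR-7b-3p therefore has the 3p seed of Mir7-2, AACAAGU, and not that of Mir7-1. The seed of miR-375-5p was found in no other mature sequence of the table.

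The hairpins, with the mature strands above in capitals, show how far the identity of Mir7-1 and Mir7-2 extends.
Mir7-1: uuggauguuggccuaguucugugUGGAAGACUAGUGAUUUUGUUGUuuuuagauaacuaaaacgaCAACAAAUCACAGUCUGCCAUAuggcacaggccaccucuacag
Mir7-2: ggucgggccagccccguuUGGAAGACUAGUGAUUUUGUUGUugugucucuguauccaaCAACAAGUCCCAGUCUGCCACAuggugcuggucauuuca
Mir7b: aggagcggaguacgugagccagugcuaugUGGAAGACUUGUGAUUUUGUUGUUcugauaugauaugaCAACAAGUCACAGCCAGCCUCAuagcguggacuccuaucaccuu
Mir375: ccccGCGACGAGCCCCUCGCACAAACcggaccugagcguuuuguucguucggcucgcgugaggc

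The longest stretch common to the hairpins of Mir7-1 and Mir7-2 is 24 bases, all 23 of miR-7a-5p and the base after it. A read that lies inside it matches both loci and cannot be assigned to either. Of the windows of 20 bases, 5 of 89 in Mir7-1 and 5 of 78 in Mir7-2 recur in another of the 1005 mouse hairpins of the table, against 0 of 92 in Mir7b and 0 of 45 in Mir375. Mir7b shares at most 14 bases in a row with Mir7-1 and with Mir7-2. At least 1 such window was shared in 13.1% of all hairpins. Guanine and cytosine make up 67.2% of the Mir375 hairpin, more than in 94.6% of the hairpins, against 41.7% in Mir7-1, 46.8% in Mir7b and 50.5% in Mir7-2.

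**Figure D1:**
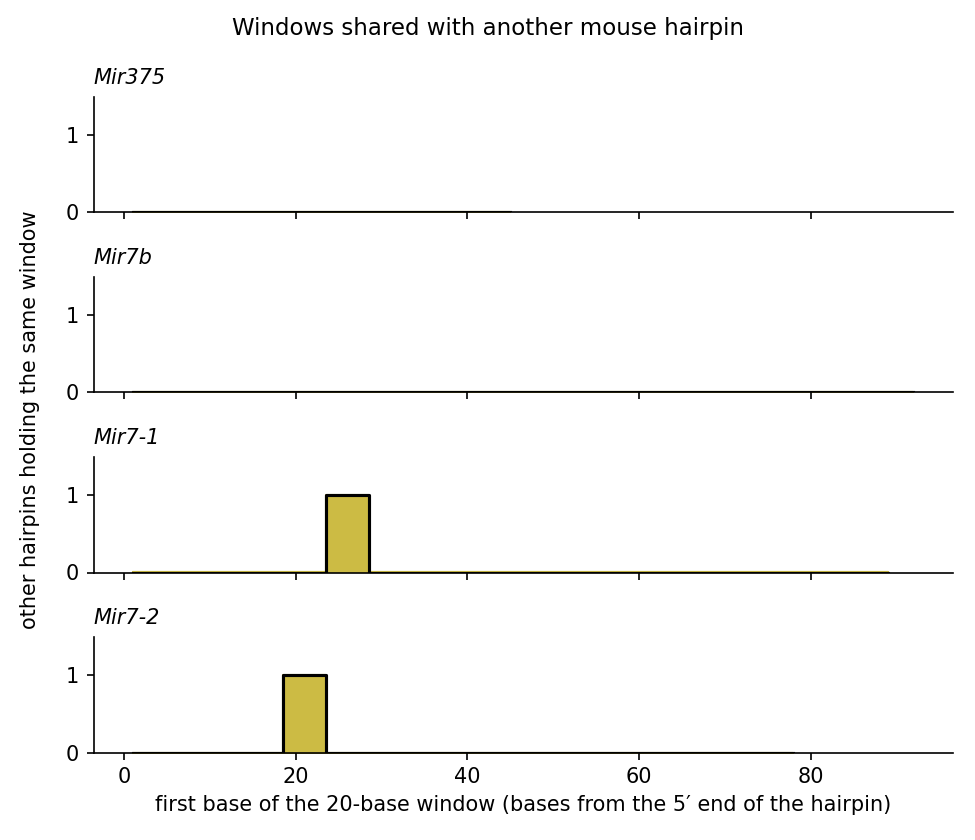
Number of other mouse hairpins that hold the same 20-base window (y axis), by the first base of the window from the 5′ end of the hairpin (x axis, bases), for the 4 genes. Mir7-1 and Mir7-2 each have 1 block of 5 shared windows, which lies over miR-7a-5p, and Mir375 and Mir7b have none.

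The 4 genes lie on different chromosomes (mm10 coordinates, counted from 1). Mir375 is at 74900658 to 74900721 on the minus strand of chromosome 1, outside annotated genes. It lies between Cfap65, a cilia gene 1350 bases away, and Cryba2, a crystallin gene 7515 bases away, both on the same strand. Mir7-1, at 58392779 to 58392886 on the minus strand of chromosome 13, lies in an intron of Hnrnpk, a broadly expressed RNA-binding protein gene on the same strand. Mir7-2 is at 78888277 to 78888373 on the plus strand of chromosome 7, intergenic, with Aen the nearest gene within 10 kb at 7481 bases. Mir7b is at 56242988 to 56243098 on the plus strand of chromosome 17, 183 bases past a long intergenic noncoding RNA gene, AC026385.1, on the same strand. No other miRNA gene with a row lies within 10 kb of any of the 4.

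Replicate 2 was the deeper library. Replicates 1 and 2 hold 8747512 and 10876035 reads, of which 4261976 and 5680764 lay in a miRNA gene in its own orientation. Reads that mapped to several loci, 26.2% and 25.7%, are in no gene count. All 13 markers of an epithelial list, among them Mir192, Mir194-1, Mir194-2 and Mir215, known from gut epithelium, were detected in both libraries. Over all 1973 genes, 585 were detected in both libraries and 1257 had 0 counts in both. A count of 0 allows up to 3 counts, or 0.704 and 0.528 CPM.

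The first question is how much each gene contributes to the microRNAs of the fetal intestine. Mir375 exceeded each miR-7 gene at least 23.9 times in both libraries, and among the miR-7 genes Mir7b stood first. Levels are given in CPM, the reads on the strand of the gene divided by the total of such reads in the library and scaled as counts per 1000000. A read spans a mature microRNA and the genes were not divided by length. In whole tissue, fewer cells of a type and less RNA per cell cannot be told apart. Intervals are exact Clopper-Pearson 95% intervals. They cover counting error alone: without molecular identifiers, PCR duplicates count as separate reads.

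Mir375 had 75194 counts in replicate 1 and 89337 in replicate 2, or 17643 CPM (17518 to 17768) and 15726 CPM (15624 to 15829). Its mean was 16685 ± 1355 CPM (SD, n = 2), 1.67% ± 0.136 of the counts, and it ranked 16 and 19 among the 1973 genes. In CPM, the spread between the libraries was larger than the counting error of each, since their intervals did not overlap. The size of this difference depends on the scaling between libraries, as the comparison of the replicates further below shows.

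Mir7b, the locus with a 5p strand of its own, had 2570 and 3740 counts, or 603 CPM (580 to 627) and 658 CPM (637 to 680), with a mean of 631 ± 39.1 CPM. Mir7-1, the intronic locus, had 756 and 1115 counts, or 177 CPM (165 to 190) and 196 CPM (185 to 208), with a mean of 187 ± 13.4 CPM. Mir7-2 had 147 and 149 counts, or 34.5 CPM (29.1 to 40.5) and 26.2 CPM (22.2 to 30.8), with a mean of 30.4 ± 5.84 CPM. By mean level they ranked 111, 160 and 242 among the 1973 genes, of which 1257 had 0 counts in both libraries. The values of the 4 genes did not overlap in any pair, so the order Mir375, Mir7b, Mir7-1, Mir7-2 was the same in both libraries. In CPM, Mir7-2 varied most between the libraries in proportion to its mean (19.2%, against 6.21% to 8.12% for the others), on the fewest counts. This depends on the scaling. With the TMM scaling used further below, the log2 ratio of replicate 2 to replicate 1 was -0.27 for Mir7-2 and 0.28 for Mir7-1. The opposite strand held 0 counts at all 4 genes in both libraries.

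**Figure D2:**
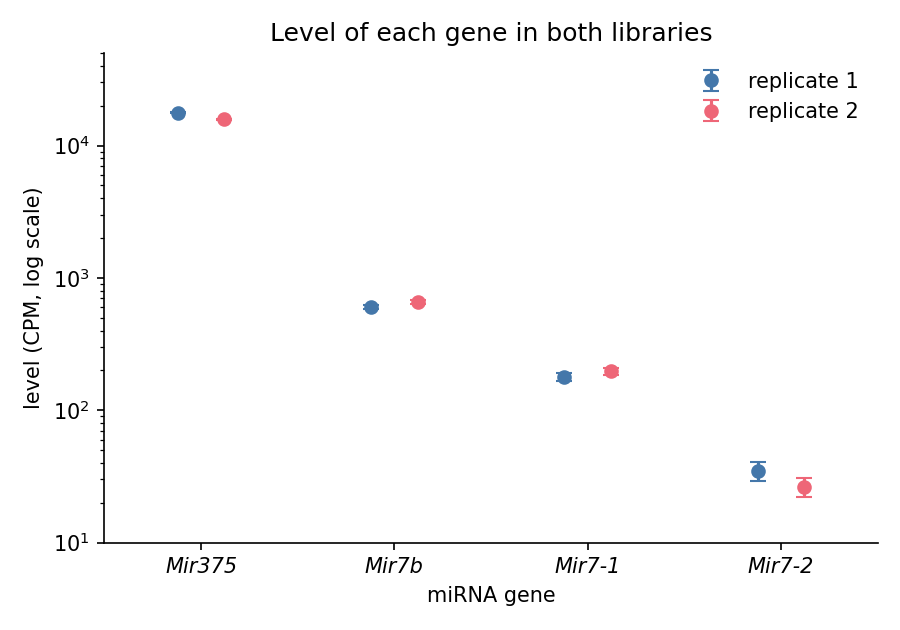
Level of each gene in CPM (y axis, log scale) in replicate 1 (blue) and replicate 2 (red), with exact 95% intervals for counting error. Mir375 stands near 16685 CPM and the miR-7 genes step down from 631 CPM at Mir7b to 187 CPM at Mir7-1 and 30.4 CPM at Mir7-2.

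Ratios within a library need no scaling between libraries. Mir375 had 29.3 and 23.9 times the counts of Mir7b in replicates 1 and 2, 99.5 and 80.1 times those of Mir7-1, and 512 and 600 times those of Mir7-2. Against the miR-7 genes together (3473 and 5004 counts, 848 ± 46.7 CPM) it was 21.7 and 17.9 times as abundant (19.8 ± 2.69, n = 2). The ratios compare counts, since the spread between the libraries does not show any bias in cloning or sequencing that both carry. For Mir7-1, Mir7-2 and the miR-7 sum they also leave out reads of miR-7a-5p that fit both loci. Mir375 and Mir7b share no exact window of 20 bases with another hairpin. However, miR-7b-5p is 1 mismatch from the hairpins of Mir7-1 and Mir7-2. Whether reads with a mismatch were assigned across these genes was not tested.

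Within the miR-7 genes, Mir7b and Mir7-1 kept nearly the same proportion while Mir7-2 varied. Mir7b had 3.40 and 3.35 times the counts of Mir7-1 (3.38 ± 0.0320, n = 2). It held 74.0% (72.5 to 75.5) of the miR-7 gene counts in replicate 1 and 74.7% (73.5 to 75.9) in replicate 2, and Mir7-1 held 21.8% (20.4 to 23.2) and 22.3% (21.1 to 23.5). For both genes the intervals of the libraries overlapped. Mir7-2 held 4.23% (3.59 to 4.96) in replicate 1 and 2.98% (2.52 to 3.49) in replicate 2, and these intervals did not overlap. Of the counts of Mir7-1 and Mir7-2 together, which give the same miR-7a-5p, Mir7-2 held 16.3% (13.9 to 18.9) and 11.8% (10.1 to 13.7). The gene counts do not separate the 5p from the 3p strand. How far the reads left out for fitting both loci lower Mir7-1 and Mir7-2, and whether Mir7b leads once they are counted, was not tested.

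**Figure D3:**
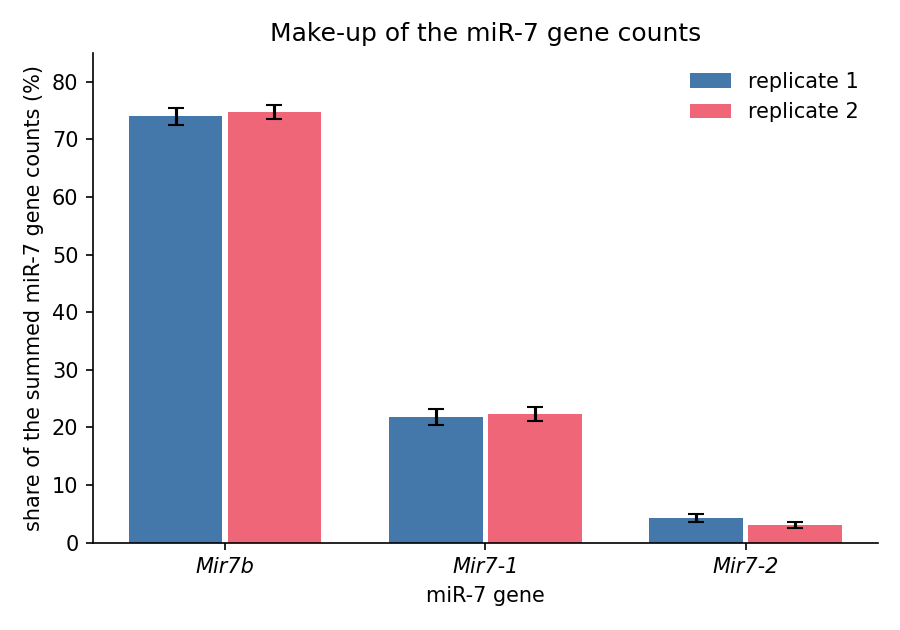
Share of the summed counts of the miR-7 genes (y axis, percent) held by each gene in replicate 1 (blue) and replicate 2 (red), with exact 95% intervals for counting error. Mir7b held 74.0% and 74.7%, and the Mir7-2 bar is lower in replicate 2 (2.98%) than in replicate 1 (4.23%).

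Identical mature copies are common among miRNA genes, and the miR-7a genes can be placed among them. Of the genes with a row and a mature sequence in RefSeq, 87 share a mature sequence with another gene. Mir7-1 ranked 14 among these and Mir7-2 ranked 29, above their median of 5.51 CPM, and 32 of the 87 had 0 counts in both libraries. Among the 829 genes whose mature sequences in the RefSeq table belong to no other gene, Mir375 ranked 16 and Mir7b ranked 95. The median of these genes was 0.44 CPM, and 269 of the 829 had 0 counts in both libraries.

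The next question is where these genes stand among microRNAs known from the same cells. Mir375 stood at the level of the leading epithelial microRNAs and above every other listed endocrine one, while Mir7b stood among the lower epithelial members. Of the 13 epithelial genes, 3 exceeded Mir375: Mir429 (25905 ± 1936 CPM) and Mir200c (19151 ± 352 CPM) of the miR-200 family, which keeps cells epithelial, and Mir215 (23894 ± 7648 CPM). Mir375 was below Mir429 in both libraries (0.719 and 0.577 of its counts) and below Mir200c in both (0.909 and 0.832). Against Mir215 it was close in replicate 1 (0.954) and lower in replicate 2 (0.537), and the SD of Mir215 was larger than that of Mir375. The summed epithelial list stood at 99339 CPM in replicate 1 and 117463 CPM in replicate 2. Mir375 made up 15.1% (15.0 to 15.2) and 11.8% (11.7 to 11.9) of that list and Mir375 together. The list holds Mir194-1 and Mir194-2, copies at separate loci, so its sum too leaves out reads that fit more than 1 locus. How far leaving them out raises the share of Mir375 was not tested. Mir7b lay above 1 epithelial gene, Mir802 (475 ± 69.9 CPM), and below the other 12, and Mir7-1 and Mir7-2 lay below all 13.

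The endocrine list holds other microRNAs known from islet or neuroendocrine cells. It has 11 genes with a row. Of these, 7 were detected in both libraries (585 of all 1973 genes) and 3 had 0 counts in both (1257 of all 1973). None in the list reached Mir375. Mir182 (3836 ± 37.2 CPM), Mir183 (2886 ± 183 CPM) and Mir96 (1198 ± 82.7 CPM), which form 1 cluster also known from sensory cells, led it. Mir375 had 4.57 and 4.13 times the counts of Mir182 in replicates 1 and 2, 5.85 and 5.71 times those of Mir183, and 15.5 and 12.5 times those of Mir96. The range of the neuroendocrine Mir153 (27.9 ± 0.919 CPM) lay within that of Mir7-2, and the islet microRNAs Mir204 (23.0 ± 4.35 CPM) and Mir184 (18.8 ± 2.04 CPM) were below Mir7-2 in both libraries. The Mir9 and Mir124a genes, best known from neurons, were lowest: Mir9-3 had 5.31 ± 1.78 CPM, Mir124a-1 had 0 and 2 counts, and Mir9-2, Mir124a-2 and Mir124a-3 had 0 in both libraries. Those genes belong to families with copies at several loci, so their counts too leave out reads that fit more than 1 locus.

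**Figure D4:**
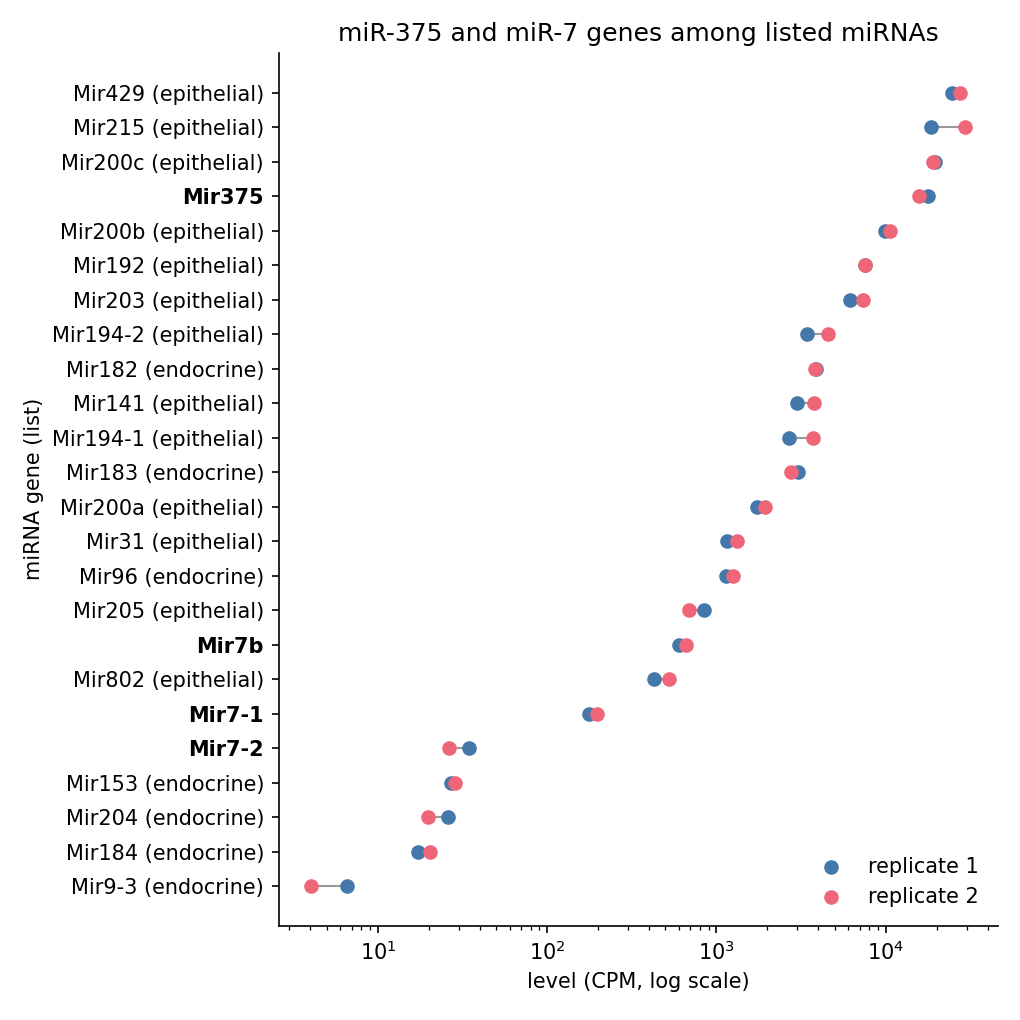
Level in CPM (x axis, log scale) of the 4 genes (bold) and of the epithelial and endocrine list members detected in both libraries, with replicate 1 in blue, replicate 2 in red and a line joining them. Mir429, Mir215 and Mir200c lie above Mir375, and Mir7-2 lies just above Mir153, Mir204 and Mir184.

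Markers of other tissues that express these microRNAs are given beside them. Pancreas is the best known source of miR-375 and lies next to the gut. The acinar markers Mir217, Mir216a and Mir216b had 7 counts in all in replicate 1 and 27 in replicate 2, or 1.64 and 4.75 CPM. Of these counts Mir217 had 4 and 23. The limit of detection for a single gene was 0.704 and 0.528 CPM. The acinar markers mark exocrine and not islet cells, so islet RNA was not measured by them. Nerve cells are a known source of miR-7. The 19 neural genes with a row summed to 2228 and 2373 CPM, of which Mir137 had 1542 ± 171 CPM and Mir132 227 ± 25.4 CPM. Mir138-1 (170 ± 2.12 CPM) stood close to Mir7-1. Mir7b exceeded all neural genes but Mir137, and 3 of the 19 had 0 counts in both libraries, against 1257 of all 1973 genes. Many of the neural genes have copies at several loci, Mir138-1 among them. Their counts, and the neural sum, leave out reads that fit more than 1 locus. The part of nerve cells in the miR-7 counts was not tested.

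By level in both libraries, the genes most like each member are named as the 3 at the smallest Euclidean distance of log2(CPM + 1), over 2 libraries. For Mir375 they were Mir322 (0.14), Mir10b (0.25) and Mir30e (0.26). For Mir7b they were Mir542 (0.12), Mir341 (0.18) and Mir300 (0.19). For Mir7-1 they were Mir340 (0.023), Mir24-2 (0.064) and Mir34a (0.095), and for Mir7-2 they were Mir212 (0.20), Mir452 (0.21) and Mir1968 (0.29). In the order by mean level, the neighbours of each member had ranges that overlapped its own. They were Mir21a and Mir30e for Mir375, Mir181b-2 and Mir542 for Mir7b, Mirlet7a-1 and Mir340 for Mir7-1, and Mir193b and Mir208b for Mir7-2. Library by library, Mir542 (596 and 605 CPM) was below Mir7b in both, and the other neighbours changed sides between the libraries. Ranges overlapped that of Mir375 in 3 genes in all, that of Mir7b in 5, that of Mir7-1 in 17 and that of Mir7-2 in 16. Some of the genes named, such as Mir24-2, Mir181b-2 and Mirlet7a-1, belong to families with copies at several loci. Their counts leave out reads that fit more than 1 locus, so the likeness is one of gene counts.

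The last comparison is between the replicates. After TMM scaling, Mir7b and Mir7-1 were higher in replicate 2 by about the same amount, Mir375 differed little, though more under total counts (log2 ratio -0.17), and Mir7-2 did not pass the test. The counts entered an exact two-sided binomial test, and p-values were adjusted by Benjamini and Hochberg's method across the 364 genes that had 20 or more counts in sum. It sets a ratio against counting error and compares these 2 libraries, not conditions. The test does not take in the spread between pools, for which there are only 2 libraries. Mir7b had a log2 ratio of replicate 2 to replicate 1 of 0.26 (counting error 0.037, adjusted p of the exact test 1.70e-11). Mir7-1 had a log2 ratio of 0.28 (counting error 0.068, adjusted p of the exact test 0.000159). Under total counts in place of TMM these ratios were 0.13 and 0.15, and Mir7-1 no longer passed (adjusted p of the exact test 0.0543). Mir375 had a log2 ratio of -0.04 (counting error 0.0071, adjusted p of the exact test 1.47e-06), which was 0.0039 and did not pass when TMM factors came from all 716 genes with a count (adjusted p of the exact test 0.842). Under total counts it was -0.17 (adjusted p of the exact test 1.02e-117). Mir7-2 had a log2 ratio of -0.27 (counting error 0.17, adjusted p of the exact test 0.181), which was -0.40 and passed under total counts (adjusted p of the exact test 0.0334).

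Thus 3 of the 4 genes passed, 2 higher in replicate 2 and 1 higher in replicate 1, or 1 and 2 under total counts, which shift all log2 ratios by -0.13. Of all 364 tested genes, 189 passed (51.9%), so that passing was common. Of the 364, 89 (24.5%) passed as higher in replicate 2 and 100 (27.5%) as higher in replicate 1. The larger of these directions depended on the scaling: under total counts 46 (12.6%) were higher in replicate 2 and 164 (45.1%) in replicate 1, and with DESeq2 size factors 97 and 90. The median log2 ratio was 0.11 over the 4 genes and -0.02 over all tested genes. By size after TMM scaling, the ratio of Mir375 was closer to 0 than those of most genes, with 42 of the 364 closer still. The ratios of the miR-7 genes lay in the middle of the range, with 208 to 215 genes closer to 0. The median size over all tested genes was 0.21.

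The counts for the marker lists in the same test stand beside 24.5% and 27.5% of all tested genes after TMM scaling and 12.6% and 45.1% under total counts. Of the 13 epithelial genes 12 passed as higher in replicate 2 and 1, Mir205, as higher in replicate 1, with a median log2 ratio of 0.34 (10 and 2 under total counts, with a median of 0.21). In the endocrine list 2 of 7 tested genes passed, both higher in replicate 2, with a median of 0.11 (1 in each direction under total counts, with a median of -0.02). In the neural list 1 of 15 tested genes passed as higher in replicate 2 and 2 as higher in replicate 1, with a median of -0.01 (1 and 4 under total counts, with a median of -0.14). In the smooth muscle and mesenchyme list 1 of 5 tested genes passed as higher in replicate 2 and 3 as higher in replicate 1, with a median of -0.12 (0 and 4 under total counts, with a median of -0.25). In the blood list 1 of 5 passed in each direction, with a median of -0.11 (1 and 4 under total counts, with a median of -0.24). In the pancreas list the only tested gene, Mir217, had 4 and 23 counts and passed as higher in replicate 2. Its log2 ratio was 2.10 (adjusted p of the exact test 0.00375), or 1.97 under total counts, where it also passed. The liver microRNA Mir122, the only gene of its list, had 994 CPM in replicate 1 and 448 CPM in replicate 2 and passed as higher in replicate 1. The log2 ratio of Mir122 was -1.02 (adjusted p of the exact test 1.65e-180), or -1.15 under total counts, where it also passed. The part of tissue makeup in the ratios of Mir375 and the miR-7 genes was not tested.

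**Figure D5:**
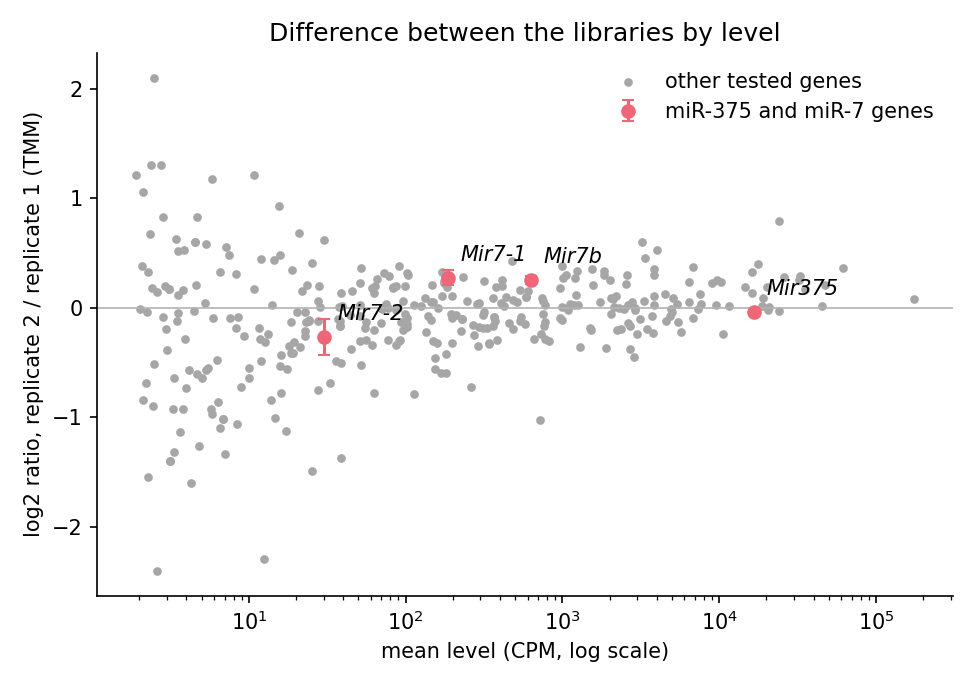
Log2 ratio of replicate 2 to replicate 1 after TMM scaling (y axis) against mean level in CPM (x axis, log scale) for the 364 tested genes, with the 4 genes in red and bars of 1 counting standard error. Mir7b (0.26) and Mir7-1 (0.28) lie above 0, Mir375 (-0.04) lies near 0 and Mir7-2 (-0.27) lies below it.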

How the data were processed

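MicroRNA-seq reads of 2 intestine libraries were analysed. The authors' deposited values are raw counts of reads for each miRNA gene (mm10, GENCODE annotation M4, per the readmes). The aligner, counter and trimming were not given in the sources used here. The tables hold 3 unnamed columns of counts, told apart by their values (without regard to strand, on the strand of the gene, and on the opposite strand, the last 2 summing to the first), and 4 rows that name no gene, which were left out: unmapped reads (19.5% and 17.2% in replicates 1 and 2), reads at several loci (26.2% and 25.7%), reads outside miRNA genes (3.69% and 2.88%) and ambiguous reads (0).

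CPM were computed from the own-strand counts and their library total. GENCODE M21, also on mm10, gave symbols for 1894 of 1973 identifiers, and RefSeq (GRCm38.p6) gave the sequences. Replicates were compared with an exact conditional binomial test, with TMM factors from the tested genes (edgeR 4.0.16), Benjamini-Hochberg adjustment over 364 genes, a threshold of 0.05 and a prior of 0.5 counts for log2 ratios. Alternatives used DESeq2 1.42.0 size factors, total counts, unstranded counts, other count minimums (1 and 100), a prior of 2 counts, a 1.5-fold minimum and other totals. The test was first tested on simulated data. R 4.3.3, Python 3.11.15, scipy 1.17.1, numpy 2.4.6 and pandas 2.3.3 were used.

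The genes, lists and tests were chosen with earlier results of these data known. Named genes were the 4 genes, the 3 nearest to each in level, the highest 3 of each list, and the genes within 10 kb. Others were named after their values were seen: the remaining endocrine genes, Mir192, Mir194-1, Mir194-2, Mir205, Mir802 and the neighbours in rank. The smooth muscle list (181099 ± 5439 CPM over 5 genes, led by Mir143, Mir214 and Mir145a) and the blood list (1389 ± 140 CPM over 5 genes, led by Mir223, Mir451a and Mir144) served as context. The endocrine and neural lists overlap in Mir9, Mir124a and Mir153 genes. List members without a row (Mir9-1, Mir216c and Mir142) were not analysed here.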

Additional observations from a re-analysis of the deposited data

How the results depend on the processing

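With Mir143, the gene at the top, taken out of the total, the levels of Mir375, Mir7b, Mir7-1 and Mir7-2 were 20199, 763, 226 and 36.8 CPM, and with all reads of the file in the total 8405, 319, 94.5 and 15.3 CPM; both follow from the changed total, and the order of the genes did not change. With either library alone, levels ranged from 15726 to 17643 CPM for Mir375, 603 to 658 for Mir7b, 177 to 196 for Mir7-1, 26.2 to 34.5 for Mir7-2 and 815 to 881 for the miR-7 sum. The ratio of Mir375 to the miR-7 sum ranged from 17.9 to 21.7, that to Mir7b from 23.9 to 29.3, that to Mir7-1 from 80.1 to 99.5 and that to Mir7-2 from 512 to 600. Its share beside the epithelial list ranged from 11.8% to 15.1%.

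Total counts shift all log2 ratios between the replicates by -0.13. Mir7-1 then had 0.15 (adjusted p of the exact test 0.0543) and Mir7-2 -0.40 (adjusted p 0.0334), and genes higher in replicate 2 and in replicate 1 numbered 46 and 164. With no filter on low counts Mir375 changed sign, to 0.0039 (adjusted p 0.842), because TMM factors then came from more genes. Its adjusted p ranged up to that value from 1.02e-117 under total counts, that of Mir7-1 from 2.10e-05 to 0.0543, and that of Mir7-2 from 0.0334 to 0.412. With a 1.5-fold minimum 40 genes passed, 9 higher in replicate 2 and 31 in replicate 1, none of them among the 4. The balance of directions over all genes, 89 higher in replicate 2 and 100 in replicate 1, turned with DESeq2 size factors (97 and 90), with no filter (105 and 77) and with at least 100 counts (90 and 84), and was 84 and 103 with unstranded counts. Beside the changes named, the log2 ratios of the 4 genes kept their direction and side of the threshold under every alternative run. The ranges over single libraries are no measure of stability, since either of 2 values lies within 1 SD of their mean, and unstranded counts could not change the ratios among the 4 genes, which had 0 opposite-strand counts. Log2 ratios could not be computed without 1 replicate. No paired analysis was possible because the design has 1 group. At 147 and 149 counts, Mir7-2 is the gene whose ratio depth limits most.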
